A study of Saccharomyces cerevisiae with 236 samples.

Results

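The Yeast Knockout collection (YKOaux) is a set of Saccharomyces cerevisiae strains that each lack 1 gene and carry molecular barcodes, an uptag and in most strains a downtag, so that the abundance of every strain in a pooled culture can be read on a barcode array. Here the YKOaux pool was grown in YPG, a rich medium whose carbon source is glycerol (3%), on 2 arrays, and compared with the same pool in YPD, which holds glucose, on 8 arrays without DMSO. Every deletion strain with a measured barcode belongs to the comparison, with no selection by response. The tag table held 10198 tags (5179 uptags and 5019 downtags) of 5179 strains and 4993 ORFs, and 3913 strains (75.6%) had at least 1 tag above background in all 8 YPD arrays and were tested.

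Glycerol is a non-fermentable carbon source. Yeast takes it up, phosphorylates it and oxidizes it to an intermediate of glycolysis, and the energy then comes from the respiratory chain of the mitochondrion, whereas on glucose the same cells ferment and can lose respiration without dying. A core part of the respiratory chain is encoded by mitochondrial DNA, so strains that lack the mitochondrial ribosome, its tRNA synthetases, its polymerase or the factors that splice and translate individual mitochondrial messages are classically respiratory deficient ("petite"): they form colonies on glucose and fail on glycerol.

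The YKOaux pool held diploid homozygous deletions in BY4743, a MATa/α background homozygous for his3Δ1, leu2Δ0 and ura3Δ0 and heterozygous for lys2Δ0 and met17Δ0, so all strains and all control arrays of the pool shared these auxotrophies. Cultures were started at an OD600 of 0.0625 and grown for 5 generations at 30 °C, as duplicate wells of 1 plate. The series also held haploid MATa prototrophic pools in YPG (4 arrays each) and YPD (9 each), namely PBprot (his3Δ1 leu2Δ0 met17Δ0 ura3Δ0 with the pHLUM plasmid) and BCprot (backcrossed, can1Δ::STE2pr-SpHIS5 his3Δ1 lyp1Δ0), and YKOaux pools in YPD with FCCP (6 µM) or CCCP (32 µM), both uncouplers of the mitochondrial membrane potential (3 arrays each), for which YPD with 2% DMSO was the control (9 arrays). The 2 YPG arrays are labelled as replicates. The spread behind the p-values was pooled within conditions over all 31 YKOaux arrays used, so it comes mostly from media other than YPG. These arrays included cisplatin (200 µM) and compound 16001701 (125 µM), with 3 arrays each. Such spread is between arrays labelled as replicates and may in part be technical.

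The fitness defect (FD) score of a strain was the median over the 2 YPG arrays of its YPD median minus its YPG value, on the log2 intensity scale, so that an FD score of 1 stands for a relative abundance halved by growth on glycerol. Array medians were level (8.64 to 8.65 for uptags and 9.22 to 9.23 for downtags), so a score is relative to the rest of the pool. Lower quartiles were not level. They were 7.74 and 7.73 on the YPG arrays and 7.79 on YPD replicates 6 and 7, but 7.27 to 7.57 on the other YPD arrays. What made the quartiles differ was not tested. Each score was read with the limma difference between the YPD and YPG means, and a strain was called lower in YPG at an FD score of at least 1 with a Benjamini-Hochberg adjusted p under 0.05, or higher at an FD score of -1 or below.

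The control arrays were not alike. YPD replicate 8 stood apart from the other YPD arrays, with an SD of 0.75 from the group mean against 0.24 to 0.51 for the other 7, and it was low for strains of the mitochondrial gene lists. Over the 3913 strains tested, each of which had to be above background in replicate 8 too, it gave the lowest of the 8 YPD values for 23.2% of all strains and for 43.3% of the 180 on mitochondrial lists, with median deviations from the other 7 arrays of 0.14 and -0.18. The background threshold was then fitted again on the other 7 arrays alone. Over the strains above it in those 7 arrays, a set that admits strains absent from replicate 8, the median deviation of replicate 8 was 0.09 for 4294 strains and -1.01 for 255 on those lists. YPD replicates 6 and 7 lay slightly toward the YPG arrays, with median deviations of -0.26 and -0.19 over the same 255 strains against 0.05 to 0.20 for replicates 1 to 5. What set these 3 arrays apart was not tested. Counts over all strains and by list are given with all YPD arrays and then without replicate 8 or against replicates 6 and 7.

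Most deletions left relative abundance on glycerol close to that on glucose, and a minority of strains, led by deletions of mitochondrial genes, was much scarcer. The median FD score was 0.02 (SD 0.41 over strains) and 3490 strains (89.2%) lay within 0.5 of 0, while the scores ran from -1.63 to 3.37. The 2 YPG arrays ranked strains alike (Pearson r = 0.83 across strains, which are not independent replicates and share the YPD control), with a median absolute difference between the 2 arrays of 0.15. In all, 93 of 3913 strains (2.38%) were called lower and 16 (0.409%) higher. The 93 had a YPD level close to that of all strains (median 9.62 against 9.60) and a larger spread among YPD arrays (median SD 0.54 against 0.32).

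Of the 93 strains called lower, 66 carried deletions of genes on 15 lists of mitochondrial function, 27 were on no list and none was on the other 8 lists. The mitochondrial lists had 180 strains tested, so 36.7% of them were called, against 2.38% of all strains and 0.762% of the 3544 strains on no list. Both YPG values lay below all 8 YPD values for 76 of the 93 called strains, and separately for 76 of the 180 listed mitochondrial strains, a separation seen in 4.93% of all strains. For the called strains the separation is not independent of the call, which used the same values. Both YPG values fell under the background threshold of 7.39 in 28 of the 93, so for these the score is limited by the array floor. Where the second tag of a called strain was also above background (34 strains), it gave an FD score of at least 1 in 27 and above 0 in 32. The 2 exceptions were MRP1 (1.86 by one tag, -0.82 by the other) and YGR164W (1.40 and -0.08). An FD score of at least 1 without a call was seen in 5 strains, among them SLA1 at 1.47 (adjusted p = 0.0791) and ATP17 at 1.38 (adjusted p = 0.393).

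**Figure D1:**
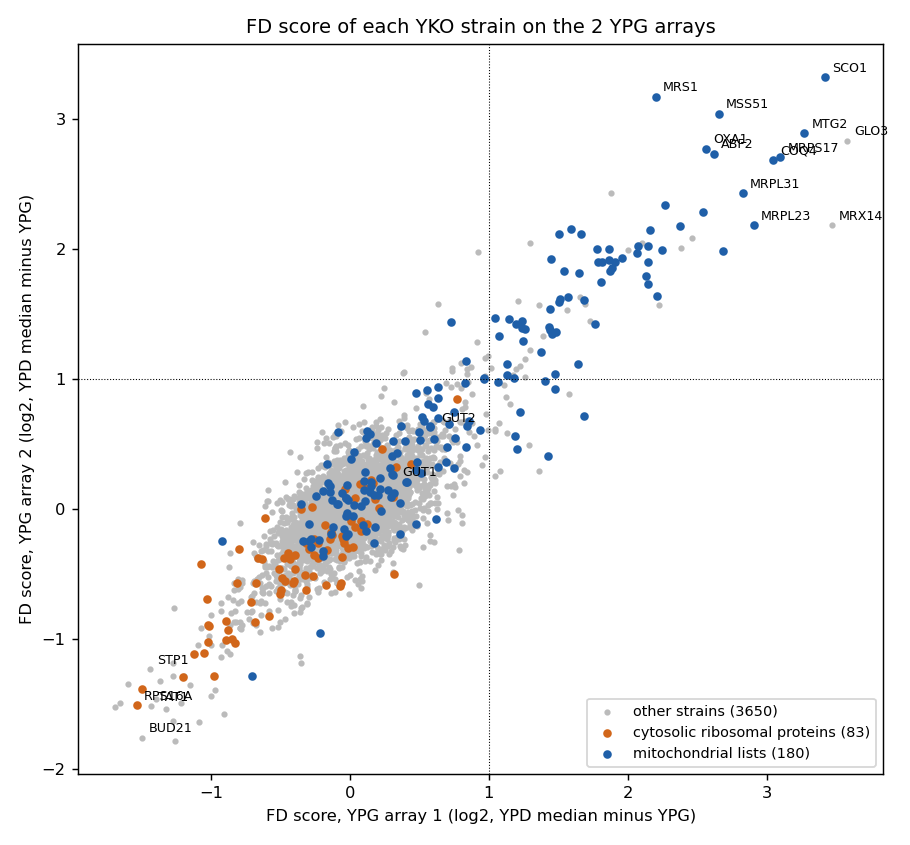
FD score (log2, YPD median minus YPG) of each tested YKOaux strain on YPG array 1 (x) and YPG array 2 (y), with dotted lines at 1. Strains of the mitochondrial lists and of the cytosolic ribosomal proteins are coloured. Most of the 3913 strains lie around 0 and 83 of the 93 strains called lower are at 1 or above on both arrays.

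The strain with the highest score lacked SCO1, which delivers copper to cytochrome c oxidase. Its YPD values ran from 7.74 to 10.23 with a median of 9.72, and its YPG values were 6.30 and 6.40, below every YPD array. This was an FD score of 3.37 (limma SE 0.33, adjusted p = 1.57e-07), and its second tag gave 3.43. Both YPG values were under the background threshold of 7.39, so that the relative abundance was at least 5.03-fold lower, counted from the YPD median down to that threshold. MTG2, a mitochondrial GTPase of ribosome assembly, ran from 9.08 to 10.49 in YPD (median 10.19) and stood at 6.92 and 7.30 in YPG, an FD score of 3.08 (SE 0.27, adjusted p = 2.8e-08). GLO3, a GTPase-activating protein of Golgi-to-ER vesicle traffic that was on no mitochondrial list, ran from 8.00 to 10.17 in YPD (median 9.86) and stood at 6.28 and 7.03 in YPG, an FD score of 3.20 (SE 0.34, adjusted p = 1.33e-06). In all 3 strains the YPG and YPD values did not overlap, and the lowest YPD value was that of replicate 8. MTG2 and GLO3 were also under the threshold on both YPG arrays (at least 6.96-fold and 5.53-fold lower), so the order of the highest scores is not resolved. The same held for MRPS17, COQ4, ABF2, OXA1, MRPL31, MRPL23, RIM1, DSS1, AEP2 and YLR202C among the other 22 of the 25 strains with the highest scores.

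**Figure D2:**
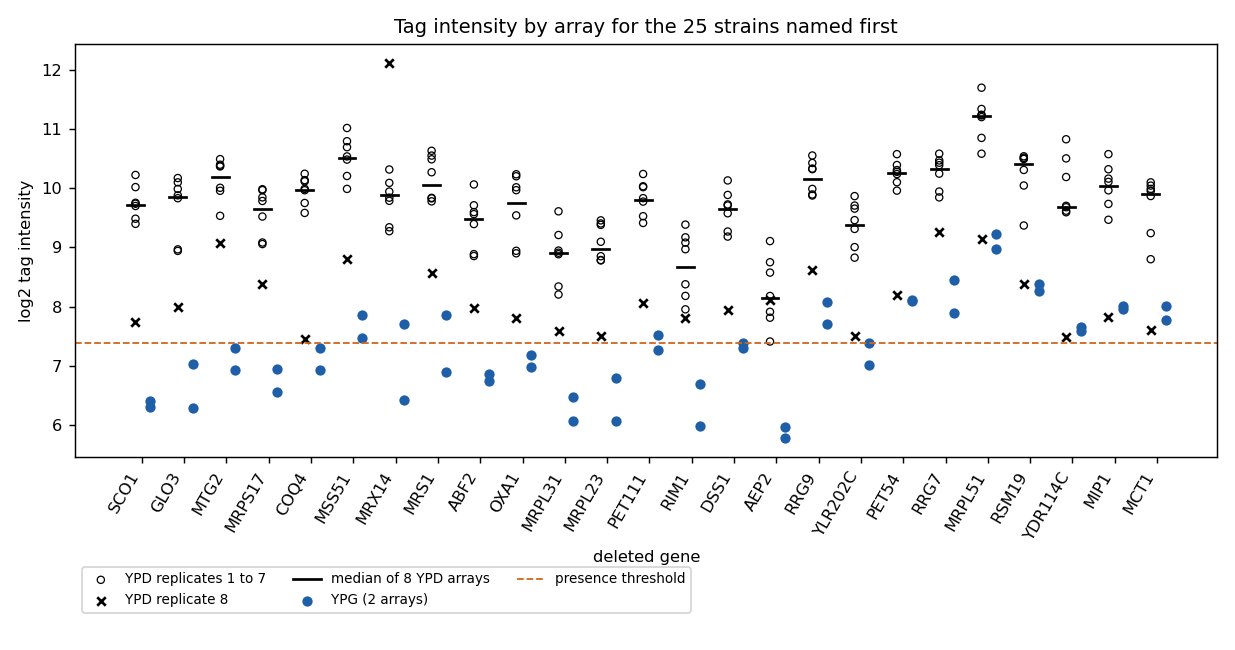
Log2 tag intensity by array for the 25 called strains with the highest FD scores that were at least 1 on both YPG arrays, with the YPD and YPG arrays marked separately. The YPG points of SCO1 lie at 6.30 and 6.40, below its lowest YPD value of 7.74.

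Strains lacking parts of mitochondrial protein synthesis made up 28 of the 66 listed calls. The large subunit of the mitochondrial ribosome had 12 of 18 tested strains called lower (66.7%, median FD score 1.20, range 0.29 to 2.63), the small subunit 5 of 10 (50.0%, median 0.97), and tRNA charging, tRNA modification and translation factors 11 of 17 (64.7%, median 1.30). All 28 ribosomal strains had a score above 0. Among structural proteins, MRPS17 of the small subunit ran from 8.38 to 9.98 in YPD (median 9.65) and stood at 6.56 and 6.95 in YPG, an FD score of 2.90 (SE 0.27, adjusted p = 9.49e-08) with 2.88 by its second tag. MRPL31 of the large subunit ran from 7.60 to 9.61 (median 8.90) against 6.07 and 6.47, an FD score of 2.63. MRPL23 ran from 7.51 to 9.46 (median 8.97) against 6.07 and 6.79, an FD score of 2.55. These ribosomal strains had no overlap between media. Without YPD replicate 8 the calls were 24 of 32 for the large subunit (median 1.65), 14 of 19 for the small subunit (median 2.36) and 19 of 26 for the translation factors (median 1.53). Against replicates 6 and 7 alone they were 6, 1 and 4 of the strains tested at first, with medians of 0.95, 0.84 and 1.11. That control has only 2 arrays, so a lost call there need not mean a much lower score.

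MRX14, a mitochondrial ribosome protein that the lists had left out, ran from 9.28 to 12.12 in YPD (median 9.89) and stood at 6.43 and 7.71, an FD score of 2.82 (SE 0.41, adjusted p = 7.64e-06). Its highest YPD value was that of replicate 8. Further ribosomal calls were MRPL51 (2.12) and RSM19 (2.08). Among the translation factors, MRF1 (mitochondrial release factor) scored 1.93 and MEF2 (mitochondrial elongation factor) 1.89. The lists also held strains near 0, with MRPL44 at 0.29 and MRPL32 at 0.35 in the large subunit, RSM28 at 0.10 and MRP51 at 0.23 in the small subunit, and AIM23 at 0.05 and PTH4 at -0.27 among the translation factors.

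Deletions that affect mitochondrial DNA itself were scored in only 6 tested strains, of which 3 were called (median 1.18; 5 of 9 without YPD replicate 8 and 2 of 6 against replicates 6 and 7). ABF2, which packages mitochondrial DNA, ran from 7.98 to 10.07 in YPD (median 9.48) and stood at 6.86 and 6.75 in YPG, an FD score of 2.67 (SE 0.30, adjusted p = 1.75e-06). RIM1, the mitochondrial single-stranded DNA-binding protein, scored 2.33 (7.81 to 9.39 in YPD, 5.99 and 6.69 in YPG). MIP1, the mitochondrial DNA polymerase, scored 2.05, with its lowest YPD value of 7.82, from replicate 8, below its YPG values of 7.97 and 8.01. RPO41, the mitochondrial RNA polymerase, scored 0.27 and was not called. RRG9 (2.27) and RRG7 (2.15), needed for upkeep of the mitochondrial genome in S. cerevisiae, were on no list and were both called.

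Factors that process or translate particular mitochondrial messages had 11 of 18 strains called (61.1%, median 1.48), with 13 of 22 without YPD replicate 8 and 8 of 18 against replicates 6 and 7. MSS51, the activator of COX1 translation, ran from 8.80 to 11.02 in YPD (median 10.51) and stood at 7.86 and 7.48 in YPG, an FD score of 2.85 (SE 0.30, adjusted p = 4.48e-07). MRS1, which acts in splicing of mitochondrial introns, ran from 8.57 to 10.64 (median 10.06) against 7.86 and 6.89, an FD score of 2.68. PET111, the activator of COX2 translation, ran from 8.06 to 10.24 (median 9.80) against 7.27 and 7.52, an FD score of 2.41. In all 3 the media did not overlap. The exoribonuclease subunit DSS1 (2.30), AEP2, which acts on the ATP9 message (2.28), and PET54, needed for COX3 translation (2.15), were also called. PET127 (-0.01) and PUS4 (-0.02), which act on mitochondrial RNA ends and on tRNA, were the lowest of the list.

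Among the respiratory complexes, complex IV (cytochrome c oxidase) and its assembly factors had 8 of 16 strains called (50.0%, median 0.99), complex III and cytochrome c 3 of 10 (median 0.84), the ATP synthase 2 of 9 (median 0.67), coenzyme Q synthesis 1 of 3 (median 0.65), and succinate dehydrogenase and the external NADH dehydrogenases 0 of 5 and 0 of 2 (medians 0.61 and 0.12). These counts moved with the control arrays and their order was not tested. Without YPD replicate 8 they were 16 of 24 for complex IV (median 1.36), 5 of 14 for complex III (0.82), 8 of 14 for the ATP synthase (1.41), 5 of 7 for coenzyme Q synthesis (2.78) and still 0 for the dehydrogenases, and against replicates 6 and 7 they were 8, 3, 1, 1 and 0. After SCO1, the membrane insertase OXA1 scored 2.67 (7.81 to 10.24 in YPD, 7.19 and 6.99 in YPG) and the copper chaperone COX11 1.94 (7.57 to 9.60, against 7.02 and 7.43). SCO2, the paralog of SCO1, scored -0.01. Subunit 5 of the oxidase has isoforms, and COX5A, the form made with oxygen, ran from 9.64 to 10.53 in YPD and stood at 8.87 and 8.74 in YPG, an FD score of 1.32 (SE 0.21, adjusted p = 7.04e-05), while COX5B, the form made without oxygen, scored -0.26.

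In complex III, cytochrome c1 (CYT1) scored 1.81 and its haem lyase CYT2 scored 1.73, both called, as was the assembly factor CBP4 (1.41), whereas the minor cytochrome c isoform CYC7 scored 0.19 and the subunit QCR10 -0.25. COQ4, of coenzyme Q synthesis, ran from 7.45 to 10.25 in YPD (median 9.98) and stood at 6.93 and 7.30 in YPG, an FD score of 2.87 (SE 0.38, adjusted p = 2.31e-05), and its list also held COQ10 (0.65) and COQ11 (0.31). ATP23 (1.90) and ATP25 (1.55), which act in assembly of the ATP synthase, were called, and STF2 (-0.07) and FMC1 (-0.29) were the lowest of that list. For succinate dehydrogenase, the membrane subunit SDH4 stood at 8.34 and 9.36 in YPG against 9.54 to 10.35 in YPD, with an FD score of 0.92 (adjusted p = 0.0122) by the tag used and 1.97 by the other. The assembly factors TCM62 (0.76, adjusted p = 0.038) and SDH7 (0.61, adjusted p = 0.0116) also passed the test below the FD threshold, and SDH2 (0.36) and SDH8 (-0.13) did not. The NADH dehydrogenases NDE1 and NDE2 scored 0.21 and 0.02.

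Around the chain, pyruvate entry and lipoic acid synthesis had 5 of 16 strains called (median 0.80), with MCT1 of mitochondrial fatty acid synthesis at 2.02, LIP2 (lipoyl transfer) at 1.84 and GCV3, a lipoylated protein of the glycine cleavage system, at 1.60. The pyruvate carrier subunit MPC2 (-0.04) and the phosphatase PTC5 (-0.29) were lowest. The TCA cycle had 1 of 9 called, fumarase (FUM1), whose YPD values of 7.70 to 9.36 (median 9.27) did not overlap with 7.14 and 7.48 in YPG, an FD score of 1.96 (SE 0.27, adjusted p = 2.58e-05), while the minor citrate synthase CIT3 scored -0.10. Iron-sulphur cluster assembly had 2 of 8 called, ISA2 (1.65, adjusted p = 0.0467) and IBA57 (1.19), both under the background threshold in YPG. ISA2 lost the call in 12 of 20 alternative settings (highest adjusted p = 0.611) and IBA57 in 6 of 15 (highest adjusted p = 0.473), and against replicates 6 and 7 the list had 0 calls. Without YPD replicate 8, 11 of 22 were called for pyruvate entry and lipoic acid, 2 of 11 for the TCA cycle, 3 of 9 for iron-sulphur clusters and 7 of 39 for the proteases, import and shape list. The last of these had 2 of 33 called with all YPD arrays (median 0.13), the inner membrane peptidase IMP2 (1.92) and the phosphate carrier MIR1 (1.49). POR1, the main outer membrane porin, scored -0.99 but with YPD values from 8.07 to 11.68, and without YPD replicate 8 its score was 0.16.

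**Figure D3:**
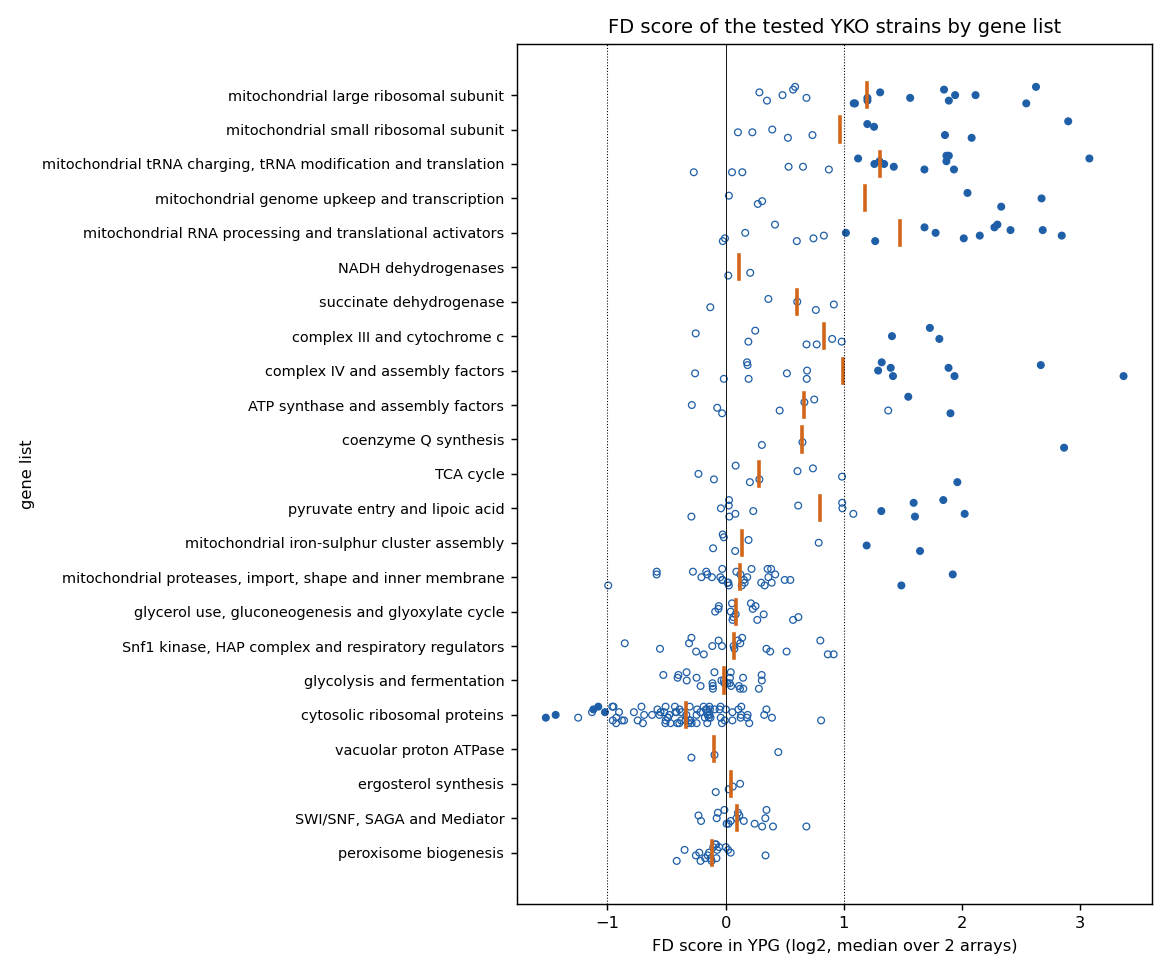
FD score in YPG (log2, median over 2 arrays) of the tested YKOaux strains by gene list, each point a strain, with dotted lines at 1 and -1. The mitochondrial translation and RNA lists have medians of 0.97 to 1.48, and the cytosolic ribosomal proteins a median of -0.33.

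The genes of glycerol catabolism itself gave no call. Among 15 tested strains of glycerol use, gluconeogenesis and the glyoxylate cycle, 0 were called lower (median 0.09, range -0.09 to 0.62), against 2.38% of all strains. Without YPD replicate 8, 0 were called also, against 4.38% of all strains. In a list of this size 0 calls is near those shares, so the count alone does not set the list apart. GUT1, the glycerol kinase, ran from 9.75 to 10.24 in YPD (median 10.09) and stood at 9.77 and 9.88 in YPG, within the YPD range, for an FD score of 0.27 (SE 0.19, adjusted p = 0.949). GUT2, the mitochondrial glycerol-3-phosphate dehydrogenase, ran from 9.00 to 9.99 (median 9.72) and stood at 9.11 and 9.09, an FD score of 0.62 (SE 0.30, adjusted p = 0.69), also inside the YPD range. The glycerol symporter STL1 scored 0.23, the acetyl-CoA synthetase ACS1 0.57, the succinate-fumarate carrier SFC1 0.32 and the gluconeogenic enzymes FBP1 and PCK1 0.25 and -0.06. The glyoxylate enzymes MLS1 (0.21) and ICL1 (-0.06), the pyruvate carboxylases PYC1 (0.05) and PYC2 (0.07), MDH2 (0.06), CIT2 (0.09), GPD1 (0.04) and MAE1 (-0.09) completed the list.

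The regulators that switch yeast to non-fermentable carbon were mostly below the threshold, with 0 of 20 called (median 0.07) against 2.38% of all strains. HAP4, the activating subunit of the HAP complex that drives respiratory genes, ran from 7.91 to 9.02 in YPD (median 8.37) and stood at 7.53 and 7.39 in YPG, an FD score of 0.91 with an adjusted p of 0.131. HAP3, another HAP subunit, scored 0.87 (adjusted p = 0.041) and was called without YPD replicate 8 (1.27, adjusted p = 0.00142). SNF1, the kinase of glucose derepression, scored 0.80 (adjusted p = 0.588). The YPG values of HAP4 and HAP3 lay below all YPD values, close to or under the background threshold of 7.39. CAT8, an activator of gluconeogenic genes, scored 0.52, ERT1 0.38 and the kinase TOS3 0.35. The other 14 lay between GAL83 at 0.14 and RTG2, of retrograde signalling, at -0.85, with HAP5 at -0.31, ADR1 at 0.07 and REG1 at -0.56. Glycolysis and fermentation had 0 of 26 called (median -0.01), with ALD6 at -0.41 and TDH1 at -0.53 the lowest. The vacuolar proton ATPase (0 of 3), ergosterol synthesis (0 of 4), SWI/SNF, SAGA and Mediator (0 of 18) and peroxisome biogenesis (0 of 20) had medians of -0.09, 0.04, 0.10 and -0.11. In lists of these sizes, counts of 0 are near the 2.38% called over all strains.

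Among the strains tested, those that gained relative abundance on glycerol were fewer and their changes smaller. A strain had to be above background in every YPD array, with no such rule for YPG. Strains scarce in YPD were thus left out, so the 2 directions are not compared on equal terms. All 16 called higher lay above all 8 YPD values on both YPG arrays, as did 2.91% of all strains. The call used these same values, so the separation is not independent of it. In the 6 with both tags above background the second tag moved the same way. BUD21, a component of the small-subunit processome, ran from 8.50 to 9.17 in YPD (median 8.82) and stood at 10.32 and 10.57 in YPG, an FD score of -1.63, a 3.09-fold higher relative abundance (SE 0.21, adjusted p = 2.62e-06), with -1.80 by its second tag. Of the 16, 5 lacked a protein of the small cytosolic ribosomal subunit. RPS16A ran from 7.55 to 9.20 (median 8.05) against 9.59 and 9.56, an FD score of -1.52 (adjusted p = 0.0016), and RPS27B from 8.50 to 9.72 (median 9.32) against 10.82 and 10.70, an FD score of -1.44 (adjusted p = 0.00582). The remaining calls, named after their values were seen, were RPS18A, RPS6B and RPS10B, and BAS1 (-1.18), a regulator of purine and histidine genes, LSM7 (-1.03), of RNA decay and splicing, and XRS2 (-1.01), of DNA repair.

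The cytosolic ribosomal proteins as a list had 0 of 83 strains called lower, against 2.38% of all strains. They had 5 called higher (6.02%, against 0.409% of all strains), with a median of -0.33 against 0.02. The small subunit (33 strains) held all 5 (15.2%, median -0.51) and the large subunit (50 strains) none (median -0.16). A shift of the list was not confined to glycerol. Over the same strains its median was -0.28 in FCCP and -0.38 in CCCP, against -0.02 and -0.01 for all strains. In YPG it was -0.38 in PBprot (63 strains) and -0.46 in BCprot (61 strains), against -0.05 and 0.1. The 10 strains with the lowest scores also held the cap-binding subunit STO1 (-1.47), HPM1, which methylates a ribosomal protein (-1.43), FYV7, of rRNA processing (-1.34), and UAF30, of the RNA polymerase I upstream factor (-1.22). STP1, a transcription factor that turns on amino acid permease genes, ran from 7.98 to 9.26 (median 8.51) against 9.95 and 9.74, an FD score of -1.33 (SE 0.26, adjusted p = 0.00152), and TAT1, an amino acid permease, from 7.60 to 8.78 (median 8.26) against 9.69 and 9.77, an FD score of -1.48 (SE 0.34, adjusted p = 0.00745). YDR241W (-1.24) had no gene record in RefSeq. With YPD replicates 6 and 7 alone as the control, TAT1 (adjusted p = 0.111), RPS18A (0.707), BAS1 (0.352), XRS2 (0.0611) and LSM7 (0.0593) lost the call, and without YPD replicate 8 RPS6B and LSM7 lost it. STO1 lost it in 5 of 19 alternative settings, YDR241W in 5 of 22, TAT1 in 4 of 20 and HPM1 in 3 of 21.

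Of the 27 lower calls on no list, 6 had no RefSeq gene record, as did 304 of all strains tested. YLR202C ran from 7.51 to 9.87 in YPD (median 9.39) and stood at 7.01 and 7.38 in YPG, an FD score of 2.20 (SE 0.44, adjusted p = 0.00431), and its neighbours in the locus order are COQ9, of coenzyme Q synthesis, and MSS51, itself called at 2.85. YDR230W (1.99) neighbours COX20, YKL169C (1.67) neighbours MRPL38 and YDL032W neighbours SLM3, all on the mitochondrial lists, while YPR123C (1.90) neighbours CTR1, the copper transporter, and YNR025C neighbours MPP6 and SEC12. YDR114C (2.07, YPG values of 7.59 and 7.65 against a lowest YPD value of 7.49 from replicate 8) neighbours MRX14. COQ9, COX20, MRPL38 and SLM3 were not among the 3913 strains tested, so they have no score to set beside these. How often any strain neighbours a listed gene was not counted. Whether a neighbouring deletion removes part of the next gene was not tested. The 2 strains of EMI1, a gene next to SDH7, scored 1.36 (called) and 0.98, and of the 10 ORFs with 2 or more strains tested it was the only one with a call.

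The tests left out many of the strains that the lists are about. Of 356 mitochondrial list strains in the file, 180 (50.6%) had a tag above background in all 8 YPD arrays, against 75.6% of all strains. Without YPD replicate 8, 4294 strains were tested and 4.38% were called lower, with 90 of the 93 among them, and 25 (0.582%) higher. On the mitochondrial lists, 51.8% of 255 tested strains were called, against 36.7% of 180 with it. Of these calls over all strains, 76 were of strains not tested before, 60 of them on the mitochondrial lists. These had been left out because no tag of theirs was above background in replicate 8 and the other 7 arrays alike. The 3 lost calls were MRP49 (0.97), APT1 (-0.01) and YGR164W (-0.33), and in the last 2 the tag chosen to represent the strain changed.

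Examples of the added strains, chosen after their values were seen, follow, and a low value in replicate 8 is part of how they were selected. COX16, a complex IV assembly factor, ran from 9.42 to 10.37 in the other 7 YPD arrays (median 9.95) and stood at 6.44 in replicate 8 and at 5.29 and 6.91 in YPG, an FD score of 3.85 (SE 0.27, adjusted p = 1.4e-11). HMI1, a mitochondrial DNA helicase, ran from 9.26 to 10.32 (median 9.60) and stood at 6.47 in replicate 8 and at 6.22 and 6.13 in YPG, an FD score of 3.43 (SE 0.20, adjusted p = 1.13e-13). MSD1, the mitochondrial aspartyl-tRNA synthetase, ran from 7.92 to 9.87 (median 9.10) and stood at 6.61 in replicate 8 and at 5.76 and 5.42 in YPG, an FD score of 3.51 (SE 0.30, adjusted p = 8.06e-10). In these 3 strains both YPG values lay below the other 7 YPD values. The highest of all was IRC3 at 4.19, a mitochondrial DNA helicase on no list, and the isoleucyl-tRNA synthetase ISM1 scored 3.30, the small-subunit proteins MRPS28 3.25 and RSM7 3.15, and the fusion GTPase MGM1 3.09.

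With YPD replicates 6 and 7 alone as the control, the control arrays nearest to YPG, 53 strains were called lower (1.35%), 52 of them among the 93, and 40 on the mitochondrial lists. All 93 kept a score above 0 and 79 stayed at 1 or above, with a median of 1.36 against 1.68. Among the 25 strains with the highest scores, YLR202C, RSM19, YDR114C, MIP1 and MCT1 lost the call there. In the higher direction 31 strains were called (0.792%), among them 12 cytosolic ribosomal proteins, 8 of the small and 4 of the large subunit, with a list median of -0.51.

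The PBprot and BCprot pools gave the same contrast in prototrophic haploids, with no array in common. PBprot had 4.7% of 4132 strains called lower in YPG and BCprot 32 of 3883 (0.824%). Over the 3611 strains tested in both YKOaux and PBprot, 64 were called in both, 81% of the 79 YKOaux calls and 53.8% of the PBprot calls, where 3.3% of the shared strains were called in PBprot, and 76 of the 79 had a PBprot score above 0. The 79 had a median PBprot score of 1.68 against -0.05 for all shared strains. Over the 3434 strains tested in both YKOaux and BCprot, 9 were called in both, 28.1% of the 32 YKOaux calls and 40.9% of the 22 BCprot calls, and the 32 had a median BCprot score of 0.87 against 0.10. A total of 61 YKOaux calls had no test in BCprot, and 14 had none in PBprot.

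Tests of the difference itself found few strains. The FD score differed between PBprot and YKOaux in 40 of 3611 strains (1.11%; 33 higher in PBprot, 7 lower), of which 10 and 3 were on the mitochondrial lists. ADH3, the mitochondrial alcohol dehydrogenase, stood at 8.98 and 9.45 in YKOaux YPG, inside and above its YPD range of 7.84 to 9.23. Its score was -0.33 in YKOaux and 2.00 in PBprot (difference 2.59, SE 0.34, adjusted p = 1.26e-06). HAP5, a HAP subunit, scored -0.31 in YKOaux and 1.65 in PBprot (difference 2.20, adjusted p = 0.000659), COX18, a membrane insertase of complex IV assembly, 0.18 and 2.04 (difference 2.03, adjusted p = 0.0264), and the sorting nexin ATG20 -0.05 and 2.01 (difference 2.08, adjusted p = 6.1e-05). In the other direction RTC6, a mitochondrial ribosomal protein, scored 1.56 in YKOaux and -0.28 in PBprot (difference -1.70, SE 0.29, adjusted p = 0.000116), and RSM25, of the small mitochondrial subunit, 1.20 and 0.01 (difference -1.27, adjusted p = 0.00672). GID11, a substrate receptor of the GID ubiquitin ligase, scored 1.16 and -0.28 (difference -1.52).

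In BCprot the score differed in 4 of 3434 strains (0.116%), a count that rose to 20 of 3521 without YPD replicate 8 and fell to 0 without either YPG array. ABF2 scored 2.67 in YKOaux and 0.65 in BCprot (difference -1.77, SE 0.40, adjusted p = 0.0397) and MSS2, which acts in membrane export of a complex IV subunit, 1.40 and -0.06 (difference -1.44, adjusted p = 0.0233). TAT1 and QRI5 scored higher in BCprot by 1.74 and 1.33. Ploidy, mating type, auxotrophy and pool differ together between these collections and cannot be told apart.

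**Figure D4:**
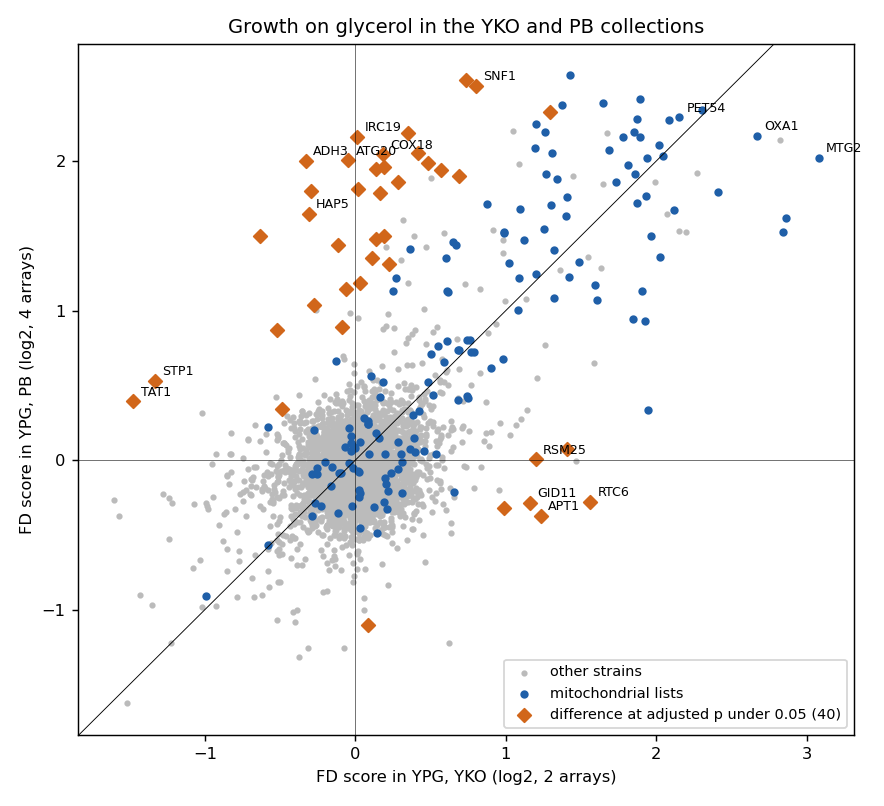
FD score in YPG (log2) of each strain tested in both collections, YKOaux (x) against PBprot (y), with the line of equal scores. Strains of the mitochondrial lists and strains whose difference had an adjusted p under 0.05 are coloured. Of the 79 strains called in YKOaux, 64 are also called in PBprot, and ADH3 lies at -0.33 and 2.00.

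Growth on glycerol was next set beside the uncouplers, which dissipate the mitochondrial potential in cells that have glucose. FCCP had 82 of 3913 strains called lower (2.1%) and CCCP 2.66% of the same strains, each against YPD with DMSO. FCCP shared 48 calls with YPG, 51.6% of the YPG calls and 58.5% of its own, and CCCP 59, 63.4% and 56.7%. Counts by list are given side by side, with no test over lists. Over the same tested strains, FCCP called 11 of the large subunit (median 1.27, against 1.20 in YPG), 7 of the small subunit (1.47 against 0.97) and 13 of the tRNA and translation factor list (1.51 against 1.30). For the RNA processing and translational activator list FCCP called 4 strains where YPG called 11 (median 0.51 against 1.48), for complex IV 1 against 8 (0.38 against 0.99), for complex III 0 against 3 (0.14 against 0.84) and for pyruvate entry and lipoic acid 0 against 5 (0.38 against 0.80). CCCP called 7 strains of complex IV (median 0.97).

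The score differed between FCCP and YPG in 32 of 3913 strains (0.818%; 17 lower in FCCP, 15 higher). Of the 17, 12 were on the mitochondrial lists, which had 180 of the strains tested. None of these 12 lacked a ribosomal protein, of which 18 large-subunit and 10 small-subunit strains were tested. With 17 of 3913 strains lower in FCCP, 0 in lists of these sizes is near the share of all strains. It does not show that ribosomal strains score alike in the 2 media. In the other direction 2 listed strains scored higher in FCCP, MRP51 of the small subunit and AIM10 of the tRNA and translation factor list. SCO1 stood at 9.48, 9.38 and 9.31 in FCCP, within 0.5 of its DMSO median of 9.76, where YPG had 6.30 and 6.40, scores of 0.38 and 3.37 (difference -2.78, SE 0.44, adjusted p = 0.000562). PET111 stood at 9.92, 10.01 and 9.95 in FCCP against a DMSO range of 9.56 to 10.22, with a score of 0.005 against 2.41 (difference -2.22, SE 0.38, adjusted p = 0.0021). MSS51 scored 0.60 against 2.85 (difference -2.05, adjusted p = 0.00331), MRS1 0.49 against 2.68 (difference -2.34, adjusted p = 0.0272) and COQ4 0.54 against 2.87 (difference -2.01, adjusted p = 0.0426). FUM1, ATP23, IMP2, MIR1, CBP4, COA4 and MTG2 were the other listed strains with lower scores in FCCP.

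Of the 15 strains that scored higher in FCCP than in YPG, 5 are described here. TLG2, an endosomal SNARE, stood at 9.40 and 9.37 in YPG, inside its YPD range of 8.53 to 10.28, and at 7.74, 7.16 and 7.01 in FCCP, below all 9 DMSO values (lowest 9.22), scores of 0.35 and 2.52 (difference 2.05, SE 0.40, adjusted p = 0.00489). VPS51, of the GARP tethering complex, scored -0.37 and 1.92 (difference 2.04, adjusted p = 0.00303) and the repressor MIG3 -0.52 and 1.74 (difference 2.31, adjusted p = 0.0177). STP1 and TAT1, both called higher in YPG, had scores of opposite sign in the media, at -1.33 in YPG and 1.19 in FCCP for STP1 (difference 2.39, adjusted p = 0.000159) and at -1.48 and 0.92 for TAT1 (difference 2.52, adjusted p = 0.00219). Without YPD replicate 8, 2.68% of 4294 strains differed (27 higher and 88 lower in FCCP). Of the 88, 52 were among the 255 strains tested on the mitochondrial lists. Lower scores in FCCP were seen in 11 of 24 complex IV strains, 7 of 22 RNA processing and activator strains and 5 of 7 coenzyme Q strains. They were seen in 3 of 32 large-subunit and 2 of 19 small-subunit mitochondrial ribosomal strains.

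**Figure D5:**
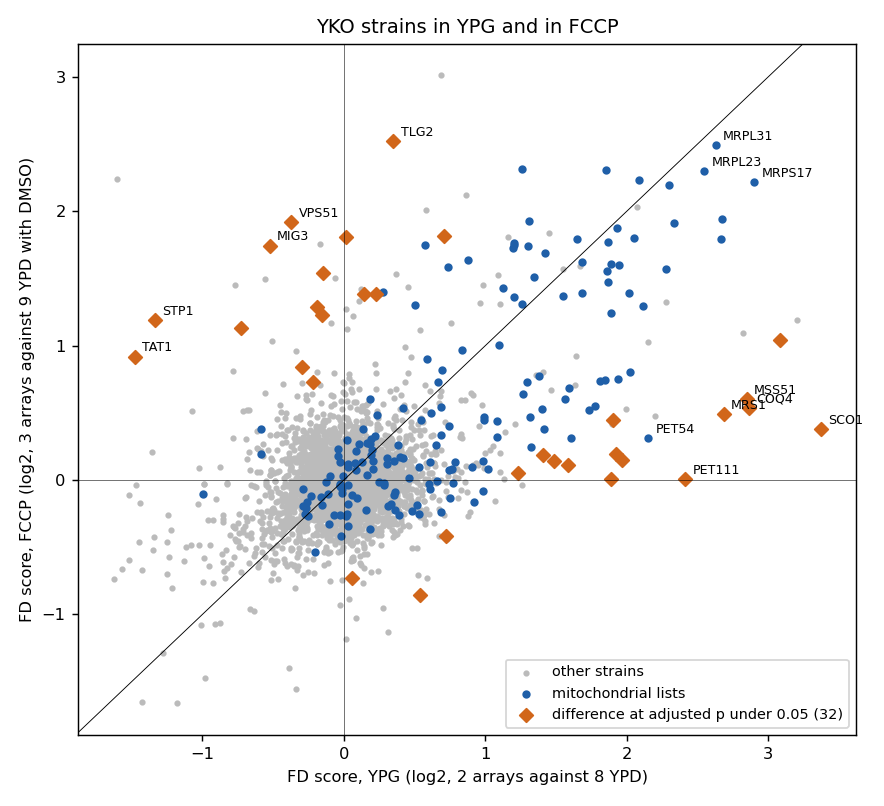
FD score (log2) of each tested YKOaux strain in YPG (x, against YPD) and in FCCP (y, against YPD with DMSO), with the line of equal scores. Strains of the mitochondrial lists and strains whose difference had an adjusted p under 0.05 are coloured. SCO1 lies at 3.37 in YPG and 0.38 in FCCP, and TLG2 at 0.35 and 2.52.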

How the data were processed

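Genomic DNA barcodes of pooled strains were hybridized to Affymetrix TAG4 arrays, and the authors deposited log2 intensities per tag after masking of hybridization artefacts and median normalization of uptags and downtags within each of 6 sets. ComBat batch correction is described in the methods, and whether it is in the deposited log2 values is not given in the sources used here. The labels give manual harvest and the methods automatic collection for YPG. Of 236 array columns, 101 were used for the comparisons and for fitting, and 135 (other sets, media or unassigned arrays) were not used.

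A tag was present where the posterior of the upper component of a 2-component Gaussian mixture fitted to the YPD arrays passed 0.5 (above 7.39 for YKOaux) in all 8 YPD arrays, and each strain was read by whichever of its present tags varied least, relative to its mean, over those arrays. In PBprot and BCprot, 4132 and 3883 strains passed. limma (version 3.58.1, in R 4.3.3) was fitted to all 31 YKOaux arrays (YPD, YPD with DMSO, YPG, FCCP, CCCP, cisplatin and compound 16001701) with 1 mean per condition, and Benjamini-Hochberg adjustment ran over all strains tested. The limma difference is between means and the FD score between medians. Differences between collections were fitted on both sets together, and within-set differences only were compared. Having 2 YPG arrays limits the precision. The fits were tested on simulated data.

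Gene symbols came from RefSeq by locus tag (4812 of 5179 strains matched), and all 664 names of 23 lists matched. No barcode or genome sequence was used here. Members and lists were chosen with earlier results of these data known. The strains named were the 25 called strains with the highest FD scores at 1 or above on both YPG arrays, the 10 higher calls with the lowest, the 3 highest calls and the 2 lowest strains of each list, every tested strain of 4 lists (glycerol use, Snf1 and HAP, NADH dehydrogenases, succinate dehydrogenase), and the 5 largest significant differences in each direction; others were named after their values were seen. One strain that this rule names is not reported here. There were 31 alternative settings (presence rule, tag choice, normalization, control arrays, replicate block, leaving out each array) and 3 added after seeing the data (control YPD replicates 6 and 7; without YPD replicates 1 and 8; without YPD_DMSO replicate 1).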

Additional observations from a re-analysis of the deposited data

Results flagged for a closer look

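Among the YPD_DMSO arrays, which entered the FCCP comparison, replicate 1 stood apart from the other 8, with an SD of 0.706 from the group mean and a lower quartile of 6.73. Without it, 41 strains differed in score between FCCP and YPG, against 32 with it.

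Of the 35 strains with the highest and lowest scores that were checked for a YPD value apart from the rest, 15 had one, and 14 of these came from YPD replicate 8. Chance alone gives such a value in about 1 in 20 groups. The lowest YPD value was apart for SCO1 (7.74), COQ4 (7.45), MSS51 (8.80), MRS1 (8.57), MRPL23 (7.51), PET111 (8.06), DSS1 (7.94), RRG9 (8.61), YLR202C (7.51), PET54 (8.20), MRPL51 (9.14), YDR114C (7.49) and MIP1 (7.82), each in replicate 8. The highest was apart for MRX14 (12.12, replicate 8) and for HPM1 (9.65, replicate 1). The cause was not tested.

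Scores in YPG differed by a test of the difference itself in 24 cases drawn from the collections and from FCCP. Relative to YKOaux in YPG, PBprot was higher for ADH3 (2.59), IRC19 (2.24), HAP5 (2.20), ATG20 (2.08) and COX18 (2.03), and lower for RTC6 (-1.70), APT1 (-1.57), GID11 (-1.52), YGR164W (-1.29) and RSM25 (-1.27). The APT1 and YGR164W differences were -0.32 (adjusted p = 0.751) and 0.13 (adjusted p = 0.932) without YPD replicate 8. BCprot was higher for TAT1 (1.74) and QRI5 (1.33) and lower for ABF2 (-1.77) and MSS2 (-1.44). FCCP was higher than YPG for TAT1 (2.52), STP1 (2.39), MIG3 (2.31), TLG2 (2.05) and VPS51 (2.04), and lower for SCO1 (-2.78), MRS1 (-2.34), PET111 (-2.22), MSS51 (-2.05) and COQ4 (-2.01).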

How the results depend on the processing

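Values are percents of the strains tested, in the order lower calls, higher calls, lower calls on the mitochondrial lists, and differences from PBprot, BCprot and FCCP, with 2.38, 0.409, 36.7, 1.11, 0.116 and 0.818 as reported. Requiring every tag to be present gave 1.61, 0.268, 26.5, 0.669, 0 and 0.626 (36 lower calls of 2238 strains, against 93), and a posterior over 0.9 gave 1.61, 0.229, 27.5, 0.819, 0.0323 and 0.315 (56 lower calls). Quantile normalization across arrays gave 3.98, 0.678 and 47.9, with 0.374 for BCprot and 1.71 for FCCP. With YPD replicates 6 to 8 as the control, 0.971 were higher and 0 differed from BCprot, and with YPD arrays with and without DMSO as the control, 2.15 differed from FCCP. The BCprot differences were 0.0582 with only YPG and YPD arrays in the fit, which has no FCCP value, and 0.0582 with an intensity trend. YPG and YPD had 2 replicate numbers in common, and deviations of same-numbered arrays correlated at 0.04 and 0.129. With only 2 YPG arrays, their deviations mirror each other, so these values cannot show whether same-numbered arrays share more than a number. With the replicate block, 84 strains were called lower, 14 higher and 63 lower on the mitochondrial lists, and 47, 11 (0.32) and 29 differed from PBprot, BCprot and FCCP. Of the settings chosen after seeing the data, YPD replicates 6 and 7 as the control gave 1.35, 0.792 and 22.2, with 0.0582 for BCprot and 0.434 for FCCP, and leaving out YPD replicates 1 and 8 gave 4.31, 0.903, 50.7, 1.62, 0.559 and 2.66. Leaving out each array in turn gave 1.51 to 4.38, 0.153 to 0.582, 25.6 to 51.8, 0.609 to 1.47, 0 to 0.568 and 0.153 to 2.68, the highest of each without YPD replicate 8 and the lowest without 1 of the YPG arrays, or for BCprot also without 1 of its own. No named score that was called changed sign except YGR164W (-0.33) and APT1 (-0.0087) without YPD replicate 8, where the other tag represented the strain. Leaving out each array gave -0.33 to 1.60 for YGR164W and -0.0087 to 1.58 for APT1. Over the named scores and the settings listed first, 2606 values kept their side of the threshold, 81 lost the call and 14 gained it. A further 2 changed sign where a call was involved. Sign changes of scores without a call in either setting are counted among the 2606. Causes were not tested, apart from the change of tag. In the 28 calls whose YPG values both fell under the background threshold, the array floor limits the score.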
